A study of Mus musculus with 12 samples.

Results

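The unfolded protein response and the integrated stress response were followed across livers of wild-type and Cyp1b1 null mice through 33 genes, named as a set by their known roles and all measured, of 14900 genes measured in all. The set holds 14 genes of protein folding in the endoplasmic reticulum (ER), 5 of ER-associated degradation, 3 stress sensors together with the transcription factor gene Xbp1, and 10 genes of the ATF4 type, which are Atf4 itself, genes it is known to induce and genes of the same stress response. Livers came from male mice weaned at 3 weeks of age onto a low-fat diet of 10% fat or a high-fat diet of 60% and killed at 14 weeks. The 4 groups were wild-type C57BL6/J on low fat, wild-type C57BL6/J on high fat, Cyp1b1 null on low fat and Cyp1b1 null on high fat, with 3 arrays each, and every array carried RNA described as 3 pooled samples. The strain background of the null mice and the way the allele was made are not stated in the labels. The sample was labelled with Cy3 and set on each of the 12 two-colour Agilent arrays against Cy5-labelled RNA pooled from wild-type low-fat liver, with no dye swap. Values below are log2 ratios of sample over this reference, and a difference between groups is a difference of mean log2 ratios, so that 1 stands for a doubling. The study's stated comparisons were null against wild-type on each diet and high against low fat in wild-type mice; the diet comparison in null mice and the test of genotype by diet are added here.

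The unfolded protein response is set off when unfolded proteins gather in the ER. The sensors IRE1 (Ern1), ATF6 and PERK (Eif2ak3) then act through the spliced form of XBP1, the cleaved form of ATF6 and phosphorylation of the initiation factor eIF2, and raise chaperones, disulfide isomerases and the degradation machinery. Phosphorylation of eIF2 by PERK or by the amino acid sensor GCN2 also favours translation of ATF4, which induces amino acid synthesis genes, Ddit3 (CHOP) and Trib3. The hepatocyte secretes most plasma proteins and has a large ER. Messenger levels on these arrays show neither splicing of Xbp1, cleavage of ATF6 nor phosphorylation.

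Promoters of ER chaperone genes are known for ER stress elements and those of ATF4 targets for C/EBP-ATF elements. Short stretches are printed for Hspa5 and for the 4 further members with the smallest p-values among those that hold a searched motif upstream of the start site. Of the 33 members, 30 matched RefSeq promoters of the build GRCm38.p6, each 250 bases before and 50 after a gene's start. Both strands were searched for the ER stress element ERSE (CCAAT, 9 bases, CCACG), for ERSE-II (ATTGG, 1 base, CCACG), for the element UPRE (TGACGTGG, which shares CGTGG with the complement of both ERSEs and may overlap them) and for the C/EBP-ATF element (TGATGNAA). Capitals mark the motif, and each stretch runs 5′ to 3′ along its gene's strand.
Hspa5, chr2:34772010-34772058, + strand, ERSE: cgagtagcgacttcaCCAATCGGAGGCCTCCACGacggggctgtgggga
Pdia6, chr12:17266476-17266524, + strand, ERSE: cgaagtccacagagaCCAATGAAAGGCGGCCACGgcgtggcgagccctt
Derl3, chr10:75893227-75893275, + strand, ERSE on the opposite strand: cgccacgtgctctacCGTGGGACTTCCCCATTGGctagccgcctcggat
Herpud1, chr8:94386302-94386402, + strand, C/EBP-ATF element on the opposite strand, then ERSE-II: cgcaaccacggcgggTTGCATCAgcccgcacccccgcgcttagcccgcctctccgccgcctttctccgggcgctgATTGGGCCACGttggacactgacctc
Asns, chr6:7693210-7693247, - strand, C/EBP-ATF element: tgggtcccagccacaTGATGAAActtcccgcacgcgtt

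An ERSE was present in 9 of the 30 matched members, against 37 of 27025 genes with a promoter in the table (0.137%). These were Hspa5, Hsp90b1 (which holds it at 2 places), Calr, Canx, Pdia6, Dnajc3, Creld2, Syvn1 and Derl3, that is 7 of 12 matched ER folding genes and 2 of 5 degradation genes, and 0 of 10 ATF4-type genes. ERSE-II was present in Dnajb11 and Herpud1, against 12 of 27025 genes (0.0444%). The C/EBP-ATF element was present in Herpud1, Atf3, Trib3, Asns and Chac1, which is 4 of 10 ATF4-type genes and 0 of 12 ER folding genes, against 4.51% of all genes. UPRE was in none of the 30 members and in 0.714% of all genes. A match describes these letters in this window and is not a measured binding site.

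1 array stands apart from the other 11 and enters 3 of the comparisons. Wild-type low-fat array 1 lay above every other array by over 1 log2 unit for 199 of 14869 genes (1.34%), against 0 to 20 genes for each other array, and its group had the lowest correlations between replicates over all genes (Pearson's r from -0.09 to 0.36, against 0.42 to 0.87 in the other 3 groups). 3 members, Hspa5, Atf3 and Trib3, were among those genes. Median log2 ratios of the marker lists were also highest there for macrophages (12 of 12 markers measured; 0.13 on that array, -1.48 to -0.07 on the others), for stellate cells (10 of 10 measured; 0.50 against -1.06 to -0.09) for dividing cells (8 of 10 measured; -0.04 against -1.87 to -0.43), for endothelial cells (8 of 8 measured; 0.37 against -0.58 to 0.18) and for plasma cells (4 of 7 measured; 0.09 against -0.85 to -0.21). The tissue label names hepatocytes of the liver, while markers of these other liver cells were measured as well. The hepatocyte list, with 9 of 10 markers measured, had a median of 0.53 on that array and -0.24 to 0.58 on the others. Nor was that array highest for bile duct markers (5 of 6 measured, -0.06 against -1.41 to 0.09) or lymphocytes (6 of 9 measured, -0.09 against -0.19 to 0.12). For pancreas acinar markers (4 of 9 measured) it was the lowest, with -0.23 against -0.14 to 0.11. In pooled tissue RNA a smaller share of a cell type and less RNA per cell cannot be told apart, and the part of other cells in the members' values was not tested. Results that use that array are also given without it where leaving it out moves the value by over 1.5 times or turns its direction.

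The arrays also differed by scan. Scan 1 holds 6 arrays on 2 slides, scan 2 holds 4 arrays, 1 of each group, and scan 3 holds 2 wild-type arrays. For 2364 of 14872 genes (15.9%) the arrays of scan 1 did not overlap those of scan 2. Among the members, by the brightest probe, Hspa5, Calr, Pdia3, Dnajc3, Sel1l, Xbp1, Atf4 and Ppp1r15a were higher on every array of scan 1 than on any of scan 2. Hsp90b1 and Creld2 were lower. Of Dnajc3, Sel1l and Hsp90b1, at least 1 further probe each overlapped between these scans. Since scan 3 holds no null array, differences within scans 1 and 2 are given beside the main genotype results. On low fat, scan 1 sets null arrays 2 and 3 against wild-type array 1 alone. On high fat it sets null arrays 1 and 3 against wild-type array 1 alone. Null low-fat arrays 2 and 3 are on 1 slide of scan 1, and its other arrays are on the other slide. Scan 1 differences for genotype on low fat and for diet in null mice thus also set slide against slide. The part of slide in them was not tested. Every difference within scan 2 is 1 array against 1. Without wild-type low-fat array 1, that group is left with scans 2 and 3, while null low-fat arrays 2 and 3 are of scan 1. Low-fat genotype values without it thus also set scan against scan, and the part of scan was not tested. In the wild-type diet comparison scan 1 then holds only high fat.

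No member passed limma's Benjamini-Hochberg adjusted p of 0.05 in any comparison. Few genes did: 3 of 14900 for null against wild-type on low fat (0.0201%), 2 on high fat (0.0134%), 1 for diet in wild-type mice (0.00671%), 1 for diet in null mice (0.00671%) and 0 for genotype by diet (0%). At an unadjusted limma p under 0.05, the members numbered 3 of 33 for genotype on low fat (Pdia6, Derl3 and Atf6) against 7.22% of all genes, 4 for genotype on high fat (Pdia6, Derl3, Asns and Sesn2) against 2.57%, 1 for diet in wild-type (Herpud1) against 4.03%, 1 for diet in null mice (Herpud1) against 1.91% and 0 for genotype by diet against 0.899% (134 genes). Without wild-type low-fat array 1 the members numbered 6 for genotype on low fat (Pdia6, Calr, Derl3, Xbp1 and Asns higher, Atf6 lower) against 10.2% of all genes, and 2 for diet in wild-type (Herpud1 and Calr) against 4.58%. Of these, Calr and Xbp1 were also higher on every array of scan 1 than on any of scan 2. The groups' arrays did not overlap for 5 members on low fat (Pdia6, Edem1 and Ern1 higher, Atf6 and Sesn2 lower in the null; 9.33% of all genes), for 5 on high fat (Pdia6, Derl3 and Asns higher, Trib3 and Ddit4 lower; 7.76%), for 1 with diet in wild-type (Herpud1; 7.21%) and for 0 with diet in null mice (4.86%). Nothing is called for the set as a whole from these counts, and the values below describe single genes at the precision that 3 arrays a group allow. Nothing in the labels says whether pooled samples are shared between arrays, so p-values measure only the spread between these arrays. The targeted gene Cyp1b1 was read by a probe that was higher, not lower, in the null mice, by 2.22 on low fat and 1.75 on high fat; the labels do not say whether that probe lies in the deleted part, and it does not check the genotypes.

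Most ER folding genes had higher values in null livers on low fat, though by the brightest probes 1 gene, Pdia6, had an unadjusted p under 0.05. Of 14 genes, 12 had a positive difference, with a median of 0.43 (0.45 without wild-type low-fat array 1), against a median of -0.01 and 49.1% positive over all genes. The list's median on single arrays was between -0.34 and 0.20 on the 6 wild-type arrays and between 0.19 and 0.55 on the 6 null arrays, so that the genotypes overlapped at the edge. Within scans the median difference on low fat was 0.15 in scan 1 and 0.31 in scan 2. The only wild-type array behind the 0.15 was wild-type low-fat array 1. On high fat 11 of 14 were positive with a median of 0.11, where all genes had a median of 0.00. Of the hepatocyte markers, 7 of 9 were higher in null livers on low fat with a median of 0.28 (6 of 9, 0.46 without wild-type low-fat array 1). On high fat 5 of 9 were higher with a median of 0.30, against 50.7% of all genes. Within scans 1 and 2 their median was -0.25 and 0.26 on low fat and 0.03 and -0.03 on high fat. The part of hepatocyte content in the folding values was not tested.

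Pdia6, a protein disulfide isomerase with the ERSE printed above, was the member with the smallest p for genotype. On the wild-type arrays Pdia6 had log2 ratios of 0.41, -0.12 and -0.11 with low fat and 0.29, 0.07 and 0.20 with high fat. The null arrays had 0.72, 0.77 and 0.95 with low fat and 0.88, 0.48 and 0.87 with high fat. By the brightest probe of Pdia6, to which these values belong, all 6 null arrays lay above all 6 wild-type arrays. How many of all genes separate in this way was not counted. The group means were 0.06 ± 0.31 (SD, n = 3) in wild-type and 0.81 ± 0.12 (SD, n = 3) in null on low fat, a difference of 0.75 (SE 0.18), or 1.68-fold, with a limma adjusted p of 0.292. On high fat the means were 0.19 ± 0.11 and 0.74 ± 0.23 (SD, n = 3 each), a difference of 0.56 (SE 0.18; limma adjusted p = 1.00). Within scans the difference was 0.44 and 0.84 on low fat and 0.59 and 0.41 on high fat. The 0.44 was set against wild-type low-fat array 1 alone, and without that array the low-fat difference was 0.93. The other 3 probes of Pdia6 gave differences of 1.18, 0.37 and 0.83 on low fat and 0.89, 0.57 and 0.02 on high fat. The null arrays also lay above the wild-type arrays on the first of these probes, and the genotypes overlapped on the others.

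Hspa5 encodes BiP, the main ER chaperone of the HSP70 family and the usual reporter of ER stress. Wild-type arrays 1 to 3 gave log2 ratios of 4.44, -0.17 and -0.54 on low fat and 0.87, -0.04 and 0.20 on high fat. Null arrays 1 to 3 gave 0.06, 0.66 and 0.35 on low fat and 1.00, -0.55 and 0.68 on high fat. The values other than the 4.44 ran from -0.55 to 1.00, and the null low-fat arrays lay above the other 2 wild-type low-fat arrays. On that array the deposited Cy5 intensity of the Hspa5 spot was 496, against 4262 to 51520 on the other arrays, while its Cy3 intensity was 40049 against 14750 to 34712. The reference channel was thus dim at this spot on that array, also beside the other 5 arrays of scan 1, which gave 4262 to 6373. The null minus wild-type difference on low fat was -0.89 (SE 1.02, limma adjusted p = 0.923) with that array and 0.71 (limma adjusted p = 0.615) without it, and on high fat it was 0.03 (SE 1.02).

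The other folding genes are given by their range. On low fat the null minus wild-type differences of Hsp90b1 (GRP94) and Calr and Canx (the lectin chaperones calreticulin and calnexin) were 0.41, 0.80 and 0.05. The probes of one gene disagreed here, since a second probe gave -0.02 for Hsp90b1 and 0.54 for Canx. Calr came to 1.24 (limma adjusted p = 0.284) without wild-type low-fat array 1, and to 0.17 and 0.39 within scans. The 0.17 was set against wild-type low-fat array 1 alone, which the 1.24 leaves out. The 0.39 was 1 null array against 1 wild-type array. These values thus do not compare like with like. The second probe of Calr gave 0.11 with all arrays. The disulfide isomerases Pdia3 and Pdia4 gave 0.18 and 0.64, with 0.46 and 0.54 when wild-type low-fat array 1 was left out. Among the co-chaperones, which serve BiP, Dnajb9, Dnajb11 and Dnajc3 gave -0.56, 0.60 and 0.17 (without that array -0.16, 0.57 and 0.45), and Sdf2l1 gave 0.55. The BiP nucleotide exchange factor Hyou1 gave 0.45 (0.26 without it), and the secreted stress proteins Creld2 and Manf gave 0.52 and 0.09 (0.45 and 0.15 without it). Further probes of Dnajc3 gave 0.49, 0.58 and 0.59 on low fat and 0.02, 0.49 and 0.51 on high fat. On the last of these probes every null array lay above every wild-type array. Its unadjusted limma p was 0.0097 on low fat and 0.020 on high fat. On high fat the 14 genes ran from -0.29 (Dnajb9) to 0.56 (Pdia6). Hsp90b1 was saturated in Cy3 on 1 array and in Cy5 on 3.

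**Figure D1:**
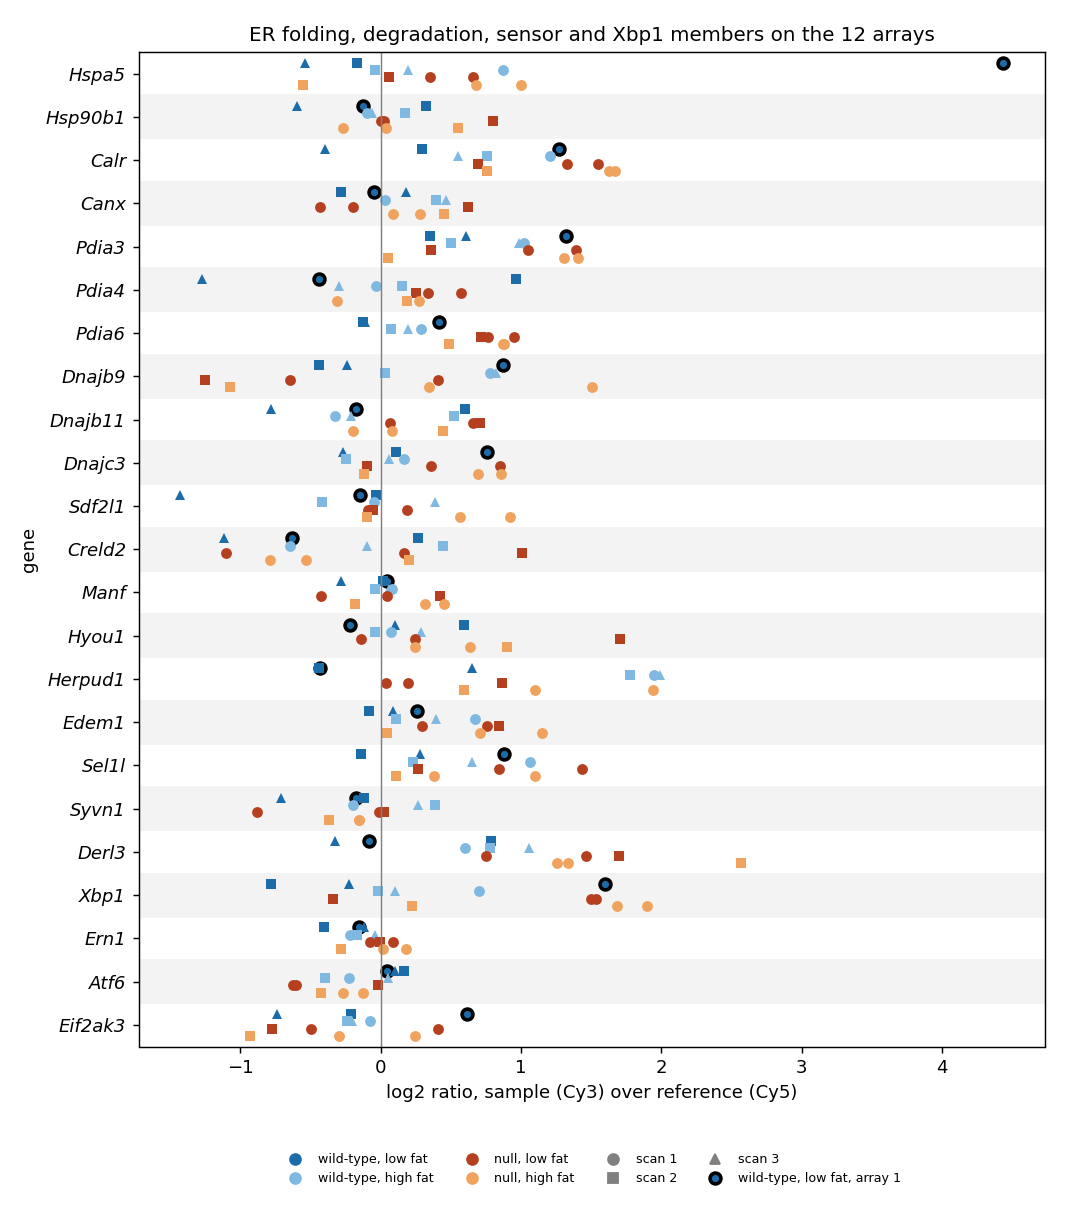
Log2 ratio of sample over reference (x axis) for each of the 23 folding, degradation, sensor and Xbp1 genes (y axis) on the 12 arrays; colour gives the group, shape the scan, and the black outline wild-type low-fat array 1. Each gene is shown by its brightest probe. Hspa5 reaches 4.44 on that array alone, and the 6 null arrays of Pdia6 lie above the 6 wild-type arrays. Xbp1 and Calr are higher on scan 1 (circles) than on scan 2 (squares).

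The 5 degradation genes clear misfolded proteins from the ER to the proteasome. All 5 had positive null minus wild-type differences on low fat (median 0.51) and positive high minus low fat differences in wild-type mice (median 0.49), 2 comparisons that share the wild-type low-fat arrays. On those 3 arrays the list's median was -0.12 to 0.09, and on the other 9 it was 0.11 to 1.15. When wild-type low-fat array 1 was left out, the medians were 0.63 and 0.58. Over all genes 49.1% and 51.2% were positive in these comparisons. In the comparisons without those arrays, 2 of 5 were positive for genotype on high fat (median -0.12) and 4 of 5 for diet in null mice (median 0.06). For genotype by diet, which also uses them, 0 of 5 were positive (median -0.42), against 52.0% of all genes.

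Herpud1, an ER membrane protein that organises the HRD1 degradation complex, had the smallest p of any member. For Herpud1 the low-fat arrays gave log2 ratios of -0.43, -0.44 and 0.65 in wild-type and 0.86, 0.04 and 0.20 in null livers. High-fat arrays gave 1.95, 1.77 and 1.99 in wild-type and 1.10, 0.59 and 1.94 in null livers. The diets did not overlap in wild-type mice and overlapped in null mice. In wild-type mice the high minus low fat difference was 1.98 (SE 0.37), or 3.94-fold, with a limma adjusted p of 0.514. It was 2.38, 2.21 and 1.34 within the 3 scans and 1.80 without wild-type low-fat array 1. In null mice the difference was 0.84 (SE 0.37; limma adjusted p = 1.00), with 1.40 in scan 1, where it also set slide against slide, and -0.27 in scan 2. The difference between these 2 diet effects was -1.13 (SE 0.53; limma adjusted p = 1.00) and did not pass the threshold. Between genotypes Herpud1 differed by 0.44 (limma adjusted p = 0.870; 0.26 without wild-type low-fat array 1) on low fat and by -0.69 (limma adjusted p = 1.00) on high fat. Genes of the circadian clock had diet differences beside that of Herpud1, none past the adjusted threshold. Of 10 measured, 8 were higher on high fat in wild-type mice (median 0.64), against 51.2% of all genes. At an unadjusted limma p under 0.05 there were 4 of them, against 4.03% of all genes in either direction. In null mice 8 were higher (median 0.53), against 54.5% of all genes. The clock output gene Dbp in wild-type mice lay between -0.62 and 1.26 with low fat and between 2.05 and 2.22 with high fat, a difference of 1.73 (SE 0.44; limma adjusted p = 0.820). In null mice the difference of Dbp was 1.64. The part of clock phase in the Herpud1 values was not tested.

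Derl3 encodes derlin 3, part of the channel through which ER proteins are drawn back. Wild-type arrays 1 to 3 gave log2 ratios of -0.08, 0.78 and -0.32 on low fat and 0.60, 0.78 and 1.06 on high fat. Null arrays 1 to 3 gave 1.70, 0.75 and 1.46 on low fat and 1.33, 2.57 and 1.26 on high fat. The groups overlapped on low fat by 1 array and did not overlap on high fat. The null minus wild-type difference was 1.18 (SE 0.39), or 2.26-fold, on low fat (limma adjusted p = 0.516) and 0.90 (SE 0.39; limma adjusted p = 1.00) on high fat. Within scans it was 1.19 and 0.91 on low fat and 0.69 and 1.78 on high fat. Derl3 is also abundant in plasma cells and the exocrine pancreas. The plasma cell list (4 of 7 measured) had a median difference of -0.11 on low fat and -0.02 on high fat. Without wild-type low-fat array 1 its low-fat median was 0.07, with 2 of 4 higher. The pancreas acinar list (4 of 9 measured) had 0.09 and 0.03. On low fat 2 of those 4 markers were higher and 2 lower in the null. Among the higher ones Amy2a5 had 0.45 to 1.03 on the null and -0.35 to 0.06 on the wild-type low-fat arrays. The part of such cells in the Derl3 values was not tested. The other degradation genes, the mannosidase-like Edem1 and the HRD1 complex genes Sel1l and Syvn1, differed by 0.54, 0.51 and 0.05 on low fat (0.63, 0.78 and 0.13 without wild-type low-fat array 1) and by 0.24, -0.12 and -0.38 on high fat. Edem1 did not overlap between genotypes on low fat (limma adjusted p = 0.722).

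Xbp1 and the 3 sensors gave no shared direction. On the wild-type arrays Xbp1 had log2 ratios of 1.60, -0.78 and -0.23 with low fat and 0.70, -0.02 and 0.10 with high fat. The null arrays had -0.34, 1.54 and 1.50 with low fat and 1.90, 0.23 and 1.68 with high fat. Its values followed the scan, with 0.70 to 1.90 on scan 1, -0.78 to 0.23 on scan 2 and -0.23 to 0.10 on scan 3. The null minus wild-type difference on low fat was 0.70 (SE 0.67, limma adjusted p = 0.893), with -0.08 and 0.44 within scans. On high fat it was 1.01 (SE 0.67, limma adjusted p = 1.00), with 1.09 and 0.25. Without wild-type low-fat array 1 the low-fat value was 1.40 (limma adjusted p = 0.469), while the -0.08 was set against that array alone.

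Atf6 encodes the sensor that is cleaved in the Golgi to a transcription factor. For Atf6 the low-fat arrays gave log2 ratios of 0.04, 0.17 and 0.10 in wild-type and -0.02, -0.60 and -0.62 in null livers. High-fat arrays gave -0.22, -0.40 and 0.05 in wild-type and -0.26, -0.42 and -0.12 in null livers. On low fat the null arrays lay below the wild-type arrays, by -0.52 (SE 0.19; limma adjusted p = 0.564), with -0.66 and -0.19 within scans. A second probe of Atf6 gave -0.16 (SE 0.21), and on high fat the first gave -0.08. Ern1, the gene of IRE1, differed by 0.23 on low fat and 0.11 on high fat, and Eif2ak3, the gene of PERK, by -0.18 and -0.16. When wild-type low-fat array 1 was left out, the low-fat value of Eif2ak3 was 0.19.

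**Figure D2:**
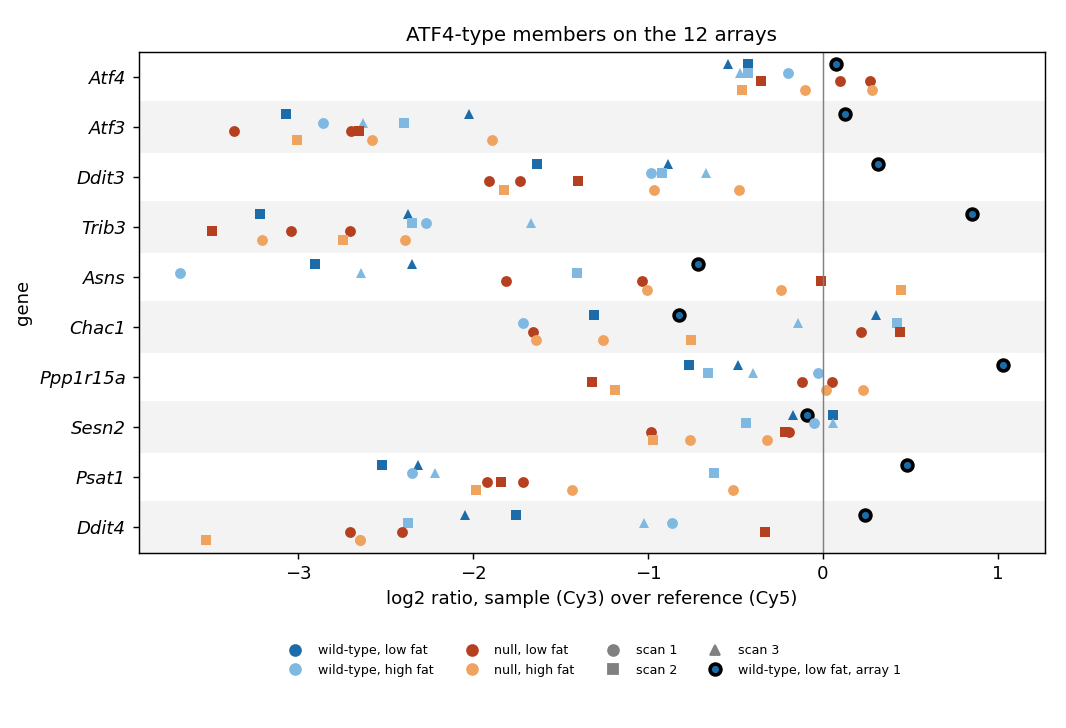
Log2 ratio of sample over reference (x axis) for the 10 ATF4-type genes (y axis) on the 12 arrays; colour gives the group, shape the scan, and the black outline wild-type low-fat array 1. Trib3, Atf3, Psat1, Ddit4 and Ddit3 are above 0 on that array and below 0 on the other 11, and Asns is lower on the other 5 wild-type arrays than on most null arrays.

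What the ATF4-type genes showed most as a list was the gap between wild-type low-fat array 1 and all other arrays. Their median was 0.18 on that array and -1.72 to -0.76 on the other 11, which include the other 2 wild-type low-fat arrays at -1.69 and -1.45. Atf3, Ddit3, Trib3, Ppp1r15a, Psat1 and Ddit4 were highest there, and Atf4, Asns, Chac1 and Sesn2 were not. The largest gap of any member was that of the folding gene Hspa5, 3.44 above its next array. Atf3, Trib3, Asns, Psat1 and Ddit4 had a median under -1 over the other 11 arrays, that is 5 of the 10, where 2.51% of all genes did; this description was chosen after the values were seen. The reference is pooled liver of the same kind as the wild-type low-fat samples, and the labels do not say whether it holds RNA of array 1.

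Trib3 encodes a pseudokinase that ATF4 and CHOP induce and that restrains AKT signalling. Wild-type arrays 1 to 3 gave log2 ratios of 0.85, -3.22 and -2.37 on low fat and -2.27, -2.35 and -1.67 on high fat. Null arrays 1 to 3 gave -3.49, -3.04 and -2.70 on low fat and -2.39, -2.75 and -3.21 on high fat. The deposited Cy3 intensity of its spot was 12315 on array 1 and 397 to 1361 on the other 11. On low fat the null minus wild-type difference was -1.50 (SE 0.79, limma adjusted p = 0.751), and -0.28 (limma adjusted p = 0.835) without that array. On high fat, which does not use it, the null arrays all lay below the wild-type arrays with a difference of -0.68 (SE 0.79, limma adjusted p = 1.00), and -0.68 with a limma adjusted p of 1.00 when the array is left out of the shared spread. The second probe of Trib3 gave -0.97 and -0.27.

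Ddit3 is the gene of the transcription factor CHOP. On the wild-type arrays Ddit3 had log2 ratios of 0.32, -1.64 and -0.88 with low fat and -0.98, -0.92 and -0.67 with high fat. The null arrays had -1.40, -1.73 and -1.91 with low fat and -0.48, -1.83 and -0.96 with high fat. The low-fat difference was -0.95 (SE 0.44, limma adjusted p = 0.701) with array 1 and -0.42 (limma adjusted p = 0.740) without it. Atf3, another stress-induced transcription factor gene, went from -1.25 (limma adjusted p = 0.730) to -0.36 in the same way. Psat1 (serine synthesis) went from -0.37 to 0.59, Ddit4 (an inhibitor of mTORC1) from -0.63 to 0.09 and Ppp1r15a (GADD34, which returns eIF2 to its unphosphorylated state) from -0.39 to 0.16. The Psat1 probe was dim, and 2 of 3 arrays of the wild-type low-fat group had it well above background.

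Atf4 itself showed little of this. For Atf4 the low-fat arrays gave log2 ratios of 0.08, -0.43 and -0.54 in wild-type and -0.36, 0.10 and 0.27 in null livers. High-fat arrays gave -0.20, -0.43 and -0.48 in wild-type and -0.10, -0.46 and 0.28 in null livers. The null minus wild-type difference was 0.30 (SE 0.24, limma adjusted p = 0.859; 0.49 without array 1) on low fat and 0.27 (SE 0.24, limma adjusted p = 1.00) on high fat. ATF4 is regulated mainly at translation, which these arrays do not measure.

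Asns, asparagine synthetase and a standard target of ATF4, went the opposite way to Trib3 between genotypes. Wild-type arrays 1 to 3 gave log2 ratios of -0.72, -2.91 and -2.35 on low fat and -3.68, -1.41 and -2.64 on high fat. Null arrays 1 to 3 gave -0.01, -1.81 and -1.04 on low fat and -1.005, 0.45 and -0.24 on high fat. In the deposited Cy3 intensities the gap was plainer, with 103 to 150 on 5 wild-type arrays, 2025 on wild-type low-fat array 1 and 555 to 1941 on the 6 null arrays. On high fat the means were -2.57 ± 1.14 in wild-type and -0.27 ± 0.73 in null (SD, n = 3 each), a difference of 2.31 (SE 0.69), or 4.95-fold, with no overlap (limma adjusted p = 1.00), and with 3.05 and 1.85 within scans. On low fat the difference was 1.04 (SE 0.69, limma adjusted p = 0.824), with -0.71 in scan 1, which holds array 1, and 2.90 in scan 2. Without array 1 it was 1.68 (limma adjusted p = 0.433). The test of genotype by diet gave 1.27 (SE 0.98, limma adjusted p = 1.00), and 0.63 without array 1.

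Sesn2 is a stress-induced sestrin that restrains mTORC1. On the wild-type arrays Sesn2 had log2 ratios of -0.09, 0.06 and -0.17 with low fat and -0.05, -0.44 and 0.06 with high fat. The null arrays had -0.21, -0.19 and -0.98 with low fat and -0.32, -0.97 and -0.76 with high fat. The null arrays were lower by -0.39 (SE 0.24, limma adjusted p = 0.800) on low fat without overlap and by -0.54 (SE 0.24; limma adjusted p = 1.00) on high fat with overlap; the second probe gave -0.45 and -0.02. Ddit4 on high fat was lower on every null array, by -1.52 (SE 0.71, limma adjusted p = 1.00; -1.78 and -1.16 within scans). Chac1, a glutathione-degrading enzyme, differed by 0.28 (SE 0.65; 0.17 without array 1) on low fat and -0.74 (SE 0.65) on high fat.

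**Figure D3:**
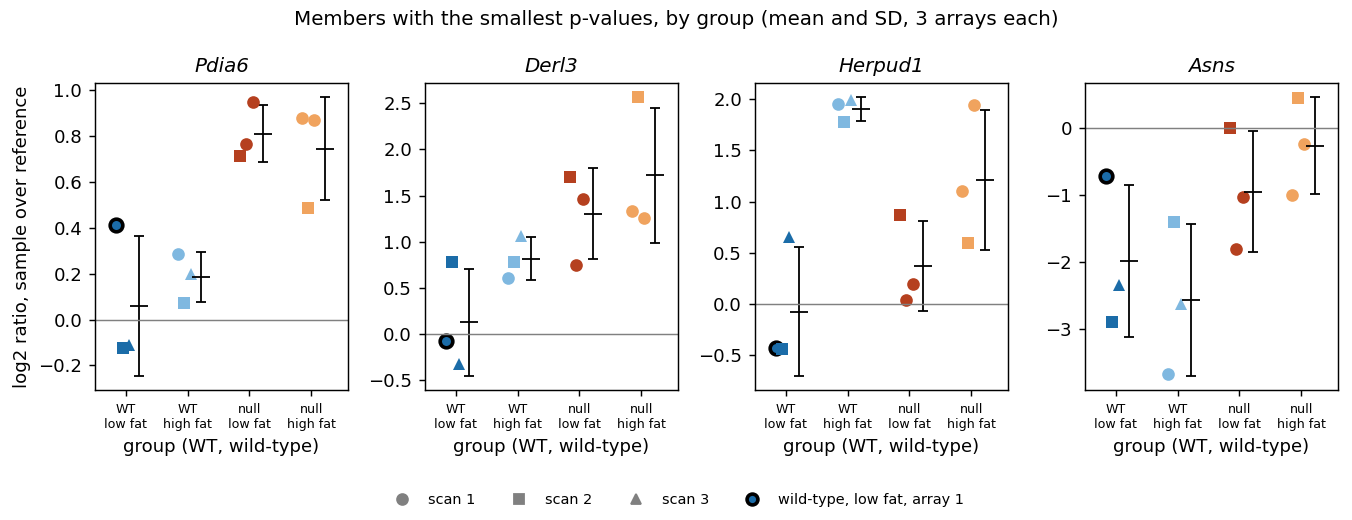
Log2 ratio of sample over reference (y axis) of Pdia6, Derl3, Herpud1 and Asns in each group (x axis), 1 point an array, with the mean and SD of 3 arrays as a bar beside them; shape gives the scan and the black outline wild-type low-fat array 1. By the brightest probe, Pdia6 is separated by genotype on both diets and Herpud1 by diet in wild-type mice. Asns is separated by genotype on high fat, where the difference was 2.31.

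The contrast between chaperones and ATF4-type genes on low fat thus rested in large part on 1 array and was absent within scan 2. On low fat the median null minus wild-type difference was 0.43 over the 14 folding genes and -0.39 over the 10 ATF4-type genes, of which 3 were positive. Without wild-type low-fat array 1 the ATF4-type median was 0.12 with 6 of 10 positive, while the folding median was 0.45 with 13 of 14 positive. The gap between the medians was 0.82 with that array and 0.33 without it. In scan 1, which holds that array, the folding and ATF4-type medians were 0.15 and -1.60. In scan 2, which does not, they were 0.31 and 0.33. On high fat the medians were 0.11 and -0.09, with 0.29 and 0.26 in scan 1 and 0.02 and -0.57 in scan 2. With diet in wild-type mice the medians over all scans were 0.13 and -0.25, and 0.31 and 0.19 without the array. With diet in null mice, where the array does not enter, they were 0.00 and 0.23.

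**Figure D4:**
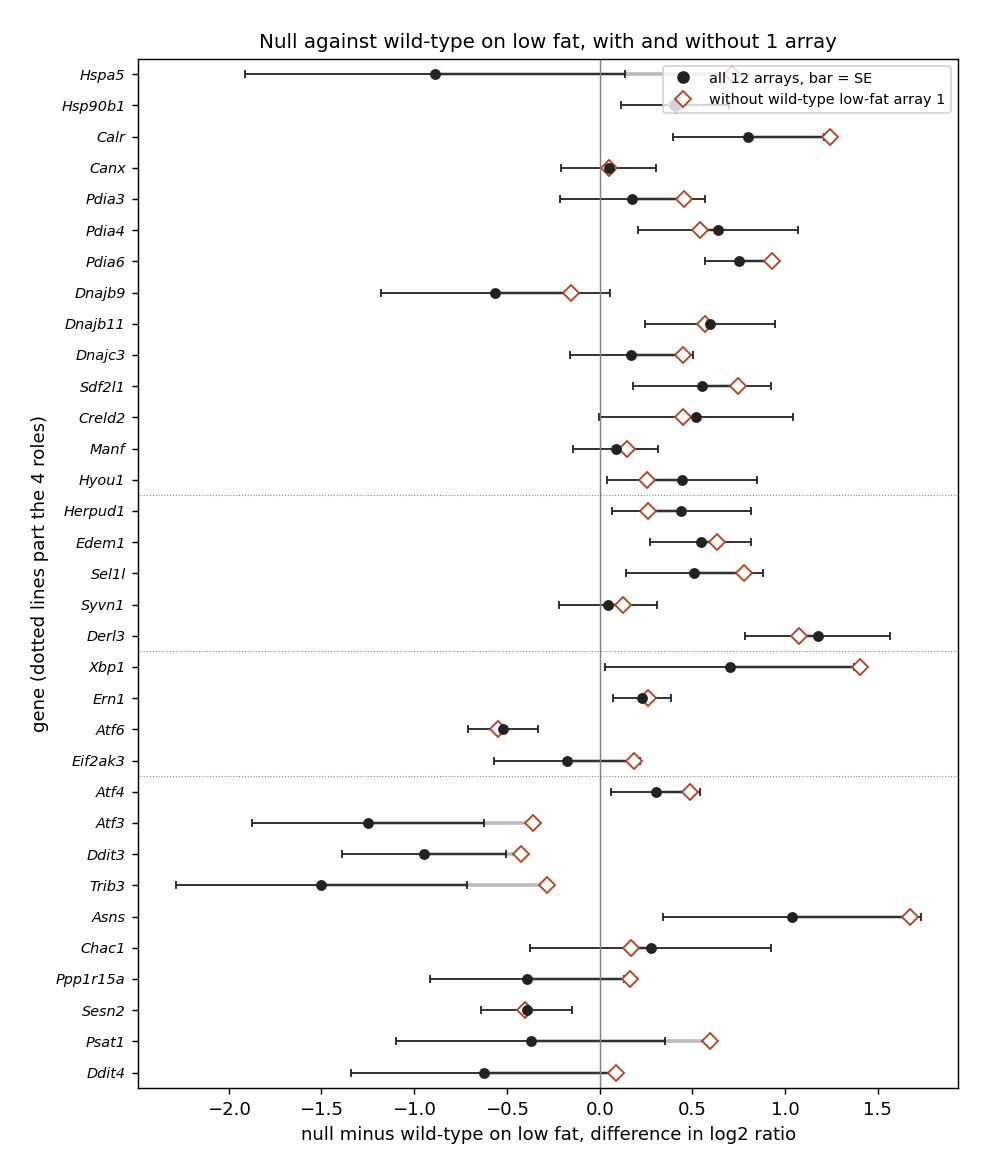
Null minus wild-type difference in log2 ratio on low fat (x axis) for the 33 members (y axis, in 4 roles); black points use all 12 arrays with a bar of 1 SE, and open diamonds leave out wild-type low-fat array 1. Hspa5 moves from -0.89 to 0.71 and Trib3 from -1.50 to -0.28, while Pdia6 moves from 0.75 to 0.93 and Atf6 from -0.52 to -0.55.

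Wider lists of the same pathways gave counts to set beside the members. Of 68 other genes of ER folding, translocation and degradation, 66 were measured. On low fat 40 of the 66 were higher in the null (median 0.10), where 49.1% of all genes were, and 3 had an unadjusted p under 0.05 upwards and 1 downwards, where 7.22% of all genes had one in either direction. When wild-type low-fat array 1 was left out, it was 45 of 66 (median 0.23), with 10 upwards and 1 downwards, where 10.2% of all genes had one. On high fat 54 of the 66 were higher (81.8%, against 50.7% of all genes; median 0.27), with 7 upwards and 0 downwards at an unadjusted p under 0.05, against 2.57% of all genes. Within scans 1 and 2 the median of the 66 was -0.13 and 0.07 on low fat and 0.28 and 0.19 on high fat. None of the 66 passed the adjusted threshold. On low fat the smallest p belonged to Ero1b, an ER oxidase that also holds an ERSE, at 1.18 (SE 0.27; limma adjusted p = 0.274), and to the KDEL receptor Kdelr2, at 1.11 (SE 0.38, adjusted p = 0.527). Kdelr2 lay between 0.05 and 1.74 on the 6 null arrays and between -0.58 and -0.14 on the 6 wild-type arrays, without overlap. On high fat the smallest belonged to the calcium-binding nucleobindin gene Nucb2, at 1.61 (SE 0.30; limma adjusted p = 0.200), and to the ER prolyl isomerase gene Fkbp11, at 0.85 (SE 0.20, adjusted p = 0.517). With diet, Fkbp11 and Arfgap3 had the smallest p in wild-type mice (-0.75 and -0.63), and Nucb2 and Creb3l3 in null mice (0.82 and 0.73). Fkbp11 and Nucb2 had the smallest p for genotype by diet as well, at 0.91 (limma adjusted p = 1.00) and 1.19 (limma adjusted p = 1.00), both with an adjusted p of 1.00.

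Of 46 other genes of the ATF4 and amino acid response, 42 were measured, and none passed the adjusted threshold. On low fat 16 of the 42 were higher in the null (median -0.07), and 25 of 42 (median 0.12) without wild-type low-fat array 1. Within scans 1 and 2 the median difference of the 42 was -0.47 and -0.06 on low fat and 0.07 and -0.09 on high fat. At an unadjusted p under 0.05 there were 2 upwards and 5 downwards on low fat, and 0 upwards and 3 downwards on high fat, against 7.22% and 2.57% of all genes in either direction. Without wild-type low-fat array 1 the low-fat counts were 4 upwards and 4 downwards, against 10.2% of all genes in either direction. Gdf15, a secreted stress hormone, lay between -1.54 and 0.26 on the 6 wild-type arrays and between -2.53 and -1.90 on the 6 null arrays, without overlap. Its null minus wild-type difference was -1.71 (SE 0.43; limma adjusted p = 0.329) on low fat, -1.37 without wild-type low-fat array 1, and -1.33 (SE 0.43; limma adjusted p = 1.00) on high fat. Aars, the alanyl-tRNA synthetase, was higher in the null on low fat by 0.90 (limma adjusted p = 0.371), and Cth, an enzyme of cysteine synthesis, lower on high fat by -0.73 (limma adjusted p = 1.00). With diet in wild-type mice the smallest p belonged to the stress protein gene Nupr1, at -1.93 (limma adjusted p = 1.00), and to the liver hormone gene Fgf21, at -1.37 (limma adjusted p = 1.00). When wild-type low-fat array 1 was left out, these were -0.98 and -1.03. With diet in null mice they were Tars, a tRNA synthetase, at -0.74 (limma adjusted p = 1.00), and Psph, of serine synthesis, at -1.12 (limma adjusted p = 1.00). For genotype by diet Nupr1 gave 2.16 (limma adjusted p = 1.00; 1.21 without wild-type low-fat array 1) and Tars -0.53 (limma adjusted p = 1.00).

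The 16 heat shock genes of cytosol and mitochondria, which answer to another stress pathway, were all measured. Their median differences were 0.01 and 0.17 for genotype on low and high fat, and 0.05 and 0.19 for diet in wild-type and null mice. Without wild-type low-fat array 1 the values for genotype on low fat and diet in wild-type were 0.03 and 0.15. The cytosolic co-chaperone gene Dnaja1, with diet in wild-type mice, was the only one of the 16 with an unadjusted limma p under 0.05 in any comparison, at 0.64 (limma adjusted p = 1.00).

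Sharing an ERSE was also set beside the values. Of the 37 genes with an ERSE in the promoter table, 19 were measured, 9 members and 10 others. On low fat 8 of the 9 members were higher in the null (median 0.41) and 6 of the 10 others (median 0.05). When wild-type low-fat array 1 was left out, these were 9 of 9 (0.45) and 5 of 10 (0.01). On high fat it was 6 of 9 (median 0.10) and 3 of 10 (median -0.07). With diet in wild-type mice it was 7 of 9 (median 0.35) and 5 of 10 (median 0.02), or 9 of 9 (0.35) and 6 of 10 (0.23) without that array. These medians describe the lists and carry no test.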

How the data were processed

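Liver RNA was measured on 12 two-colour Agilent arrays. The deposited intensity values are scanner mean signals and local backgrounds, with 0/1 marks (other) for background, saturation and uniformity, written by Feature Extraction, whose spot analysis had version 9.1.3.1 as the file headers record; the authors deposited them unnormalised. The log10 ratio and processed intensity columns are that software's, per the file headers, and served as an alternative. The authors' deposited table of log2 differences equals differences of group means of those ratios to within 5.0e-10. Limma is named in the submitters' processing notes.

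Here intensities were corrected by normexp (offset 50), normalised by loess within arrays, and turned to log2 Cy3 over Cy5, in limma 3.58.1 and R 4.3.3. A probe counted as measured where the 3 arrays of any group all marked its Cy3 signal as well above background (21479 of 41174 probes; 18363 to 23428 well above background per array). The brightest measured probe stood for a gene. 1 mean per group was fitted over the 12 arrays for 14900 genes, with Benjamini-Hochberg adjustment and a threshold of 0.05; the number of arrays limits the precision.

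Members, lists and promoter motifs were chosen with earlier results of these data known. Values on each array are given for members with an unadjusted p under 0.05 in a pairwise comparison and for Hspa5, Xbp1, Atf4, Ddit3 and Trib3; from each other list the 2 genes with the smallest p are named, since none passed. Kdelr2 and Gdf15 values by array, the gap of wild-type low-fat array 1 and the split by scan were chosen after the values were seen. The share of all genes that separate the 6 null from the 6 wild-type arrays was not counted. Same-numbered wild-type arrays share a slide and scan, and their deviations from the group means correlated (r = 0.33, 0.34 and 0.46), so these numbers pair the arrays of the wild-type diet comparison. Alternatives covered background, normalisation, probe filter and choice, Cy3 alone, array weights, variance model, blocks and each array left out. The fitting code was tested on simulated data.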

Additional observations from a re-analysis of the deposited data

How the results depend on the processing

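The median difference of the 33 members was recomputed under 25 other settings, 12 of which leave out 1 array each. For genotype on low fat it kept its sign in 25 of 25 settings, for genotype on high fat in 21 of 25 and for diet in wild-type mice in 23 of 25. It did so for diet in null mice in 22 of 25 and for genotype by diet in 22 of the 24 that apply. Leaving out an array of a group not compared, fitting only the 2 groups compared or changing only the variance model cannot move this median. Those settings keep the sign by design, so the counts overstate the agreement. Within scans the low-fat genotype median was -0.10 in scan 1 and 0.40 in scan 2. The direction of the median is thus not settled in any of these comparisons. For genotype on low fat (0.23) it was 0.74 with median centring and 0.43 with the sample channel alone, and 0.066 to 0.41 with 1 array left out. For genotype on high fat (0.10) it was 0.34 with median centring, 0.29 with array weights, -0.050 with slide as a block, -0.013 with scan as a block and -0.014 to 0.33 with 1 array left out. Array weights also called 1 member there, Pdia6 (0.65, limma adjusted p = 0.0391). For diet in wild-type mice (0.08) it was 0.27 with median centring and -0.093 to 0.32 with 1 array left out. For diet in null mice (0.06) it was -0.17 with slide as a block, -0.053 with median centring and -0.035 to 0.26 with 1 array left out. For genotype by diet (-0.07) it was -0.38 with median centring, -0.26 with slide as a block and -0.31 to 0.070 with 1 array left out. The gap between folding and ATF4-type medians on low fat (0.82) was 0.33 to 1.47 with 1 array left out. The causes were not tested. With the replicate number as a block the medians stayed at 0.23, 0.10, 0.08, 0.06 and -0.07 and 0 members were called. Outside the wild-type diet comparison, correlations of same-numbered arrays ran from -0.57 to 0.57 and were not all above 0.1. On high fat, wild-type and null arrays 1 share a slide and scan, as do arrays 2 (r = -0.02 and 0.57), but arrays 3 do not, so the numbers pair only some arrays there. Signal over background and 3 arrays a group limit what can be detected.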
